A study of Arabidopsis thaliana and Ginkgo biloba and Brassica rapa with 14 samples.

Results

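The marine alga Nannochloropsis oculata was set against 4 vascular plants for 5-methylcytosine (m5C) in its transfer RNAs. A site was taken where the deposited methylation table gave a number for N. oculata and for at least 2 of these plants: Ginkgo biloba (a gymnosperm), Triticum durum (a grass), and the crucifers Arabidopsis thaliana and Brassica rapa. The study presents cytosines that passed as methylated in some species of its 6, so which sites are listed depends on the values themselves. Of the 59 sites in the table, N. oculata had a number at 27, and 23 of these could be compared. The other 4 had a number in N. oculata alone and are described apart. The 23 compared sites lay in 11 tRNAs, with 20 sites in 8 nuclear tRNAs and 3 sites in 3 chloroplast tRNAs.

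All samples were wild type and all were RNA bisulfite sequencing (RBS-seq) libraries of gel purified small RNA. N. oculata was sampled as cells grown to log phase in artificial seawater with added nitrogen and phosphorous, and gave 1 library. A. thaliana was sampled as seedlings at 10 days after germination, B. rapa and G. biloba as leaf by their labels and as shoot apex by the study's methods, and T. durum as flag leaf. A. thaliana had 3 libraries, of which the table holds only the authors' mean, and every other species had 1 library. Species, tissue and culture cannot be told apart in this design, and no value below has a replicate error or a test.

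Bisulfite turns an unmodified cytosine into uracil, read as thymine, and leaves m5C as cytosine. The percentage of reads with a cytosine at a site is therefore read as its methylation. The paper treats such sites as candidates, because some other modified cytosines also resist bisulfite. Whether each site is m5C was not tested here. In plants and animals the enzyme TRDMT1, also named DNMT2, methylates position C38 in the anticodon loop of a few tRNAs. TRM4, named NSUN2 in animals, methylates cytosines where the variable loop meets the T stem, at C48, C49 and C50. In human cells C72 of some tRNAs is a target of NSUN6. In mice and flies m5C is known to protect tRNAs from cleavage. N. oculata is a unicellular eustigmatophyte, a stramenopile whose plastid descends from a red alga, and so stands outside the green lineage of the vascular plants.

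The sites were placed on the A. thaliana consensus sequences of the reference list, an isodecoder consensus being 1 sequence that stands for all genes of that sequence class. The sequences of N. oculata itself were not used here. The base in the A. thaliana consensus could be set against the table at 26 sites of these tRNAs, counting every listed site, and was the one the table implies at all 26. The first 4 sequences below are shown because they share the bases from position 48 to 58 but had unlike values in N. oculata, the glutamine pair because C48 and C49 parted there, and the last pair because N. oculata alone was methylated at the capital. Sequences run 5′ to 3′ as DNA letters without the CCA end, with the listed sites in capitals.
tRNA-Asp(GTC), nuclear, sites 38, 48, 49, 50 and 72: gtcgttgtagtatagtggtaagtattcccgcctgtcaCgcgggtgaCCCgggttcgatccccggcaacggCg
tRNA-Gly(GCC), nuclear, sites 38, 48, 49 and 50: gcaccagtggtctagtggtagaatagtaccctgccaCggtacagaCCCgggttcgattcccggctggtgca
tRNA-Glu(CTC), nuclear, sites 48, 49 and 50: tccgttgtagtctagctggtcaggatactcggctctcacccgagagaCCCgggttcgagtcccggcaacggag
tRNA-Gly(TCC), nuclear, sites 48, 49 and 50: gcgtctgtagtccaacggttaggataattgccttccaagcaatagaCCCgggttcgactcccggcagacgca
tRNA-Gln(CTG), nuclear, sites 48 and 49: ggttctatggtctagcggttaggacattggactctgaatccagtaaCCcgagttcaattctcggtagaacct
tRNA-Gln(TTG), nuclear, sites 48 and 49: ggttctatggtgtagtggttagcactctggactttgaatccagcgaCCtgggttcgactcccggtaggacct
tRNA-Met_i(CAT), chloroplast, site 48: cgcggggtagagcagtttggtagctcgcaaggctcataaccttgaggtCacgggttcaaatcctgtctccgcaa
tRNA-Asp(GTC) of nuclear, mitochondrial or chloroplast origin, site 38: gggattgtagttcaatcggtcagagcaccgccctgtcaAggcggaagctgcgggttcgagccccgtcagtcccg

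In A. thaliana the nuclear tRNA-Asp(GTC) consensus is shared by 25 genes, the most (9) on chromosome 1 and none on chromosome 4. That of tRNA-Gly(GCC) is shared by 22 genes, of which chromosome 1 carries 8. The glutamine consensus sequences stand for 9 genes (CTG) and 7 genes (TTG), that of tRNA-Glu(CTC) for 13 and that of tRNA-Gly(TCC) for 12. The chloroplast tRNA-Met_i(CAT) is 1 gene, ATCG00320, at 36704 to 36777 of the chloroplast genome in TAIR10.

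N. oculata was mostly less methylated than the vascular plants. It lay below the range of their values at 14 of 23 sites (60.9%), within the range at 5 and above it at 4 (17.4%). The median difference from the vascular median was -12.5 percentage points, with extremes of -78 in tRNA-Gly(GCC) and 63 in tRNA-Met_i(CAT). It was -6 points without tRNA-Gly(GCC), and also -6 with 1 value for each tRNA. At the 20 nuclear sites the counts were 14 below, 3 within and 3 above, the median value was 65.5% in N. oculata, and the median of the vascular medians was 91%. The difference was at most 10 percentage points at 7 of the 23 sites and above 30 at 11.

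**Figure D1:**
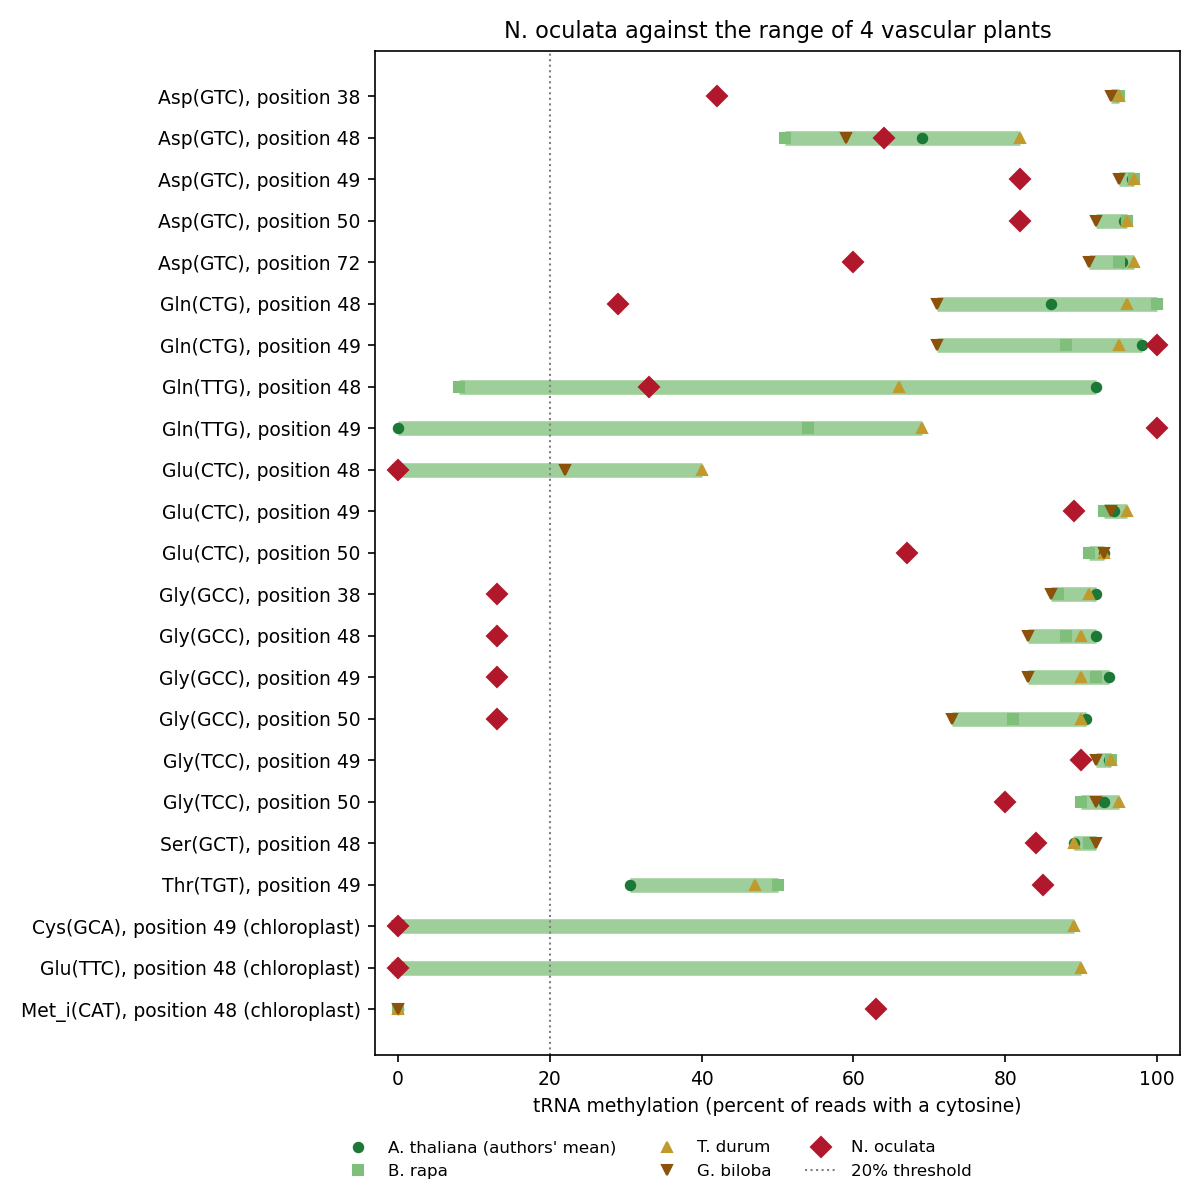
Methylation at the 23 compared sites, in percent of reads with a cytosine. Red diamonds are N. oculata, small symbols the 4 vascular plants, green bars their range and the dotted line the 20% threshold; the diamonds lie left of the bar at 14 sites and right of it at 4.

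Most sites methylated in every vascular plant nevertheless reached the study's methylation threshold of 20% in the alga. N. oculata reached it at 20 of its 27 sites and at 16 of the 23 compared ones. These counts include sites that are listed only through the alga and so had to reach it. They are the 4 with a number in N. oculata alone and, among the compared ones, C48 of tRNA-Met_i(CAT). Of 17 sites at or above the threshold in every vascular plant with a value, 13 also reached it in N. oculata. The 4 that did not were the 4 sites of tRNA-Gly(GCC). At 5 sites the vascular plants were themselves split by the threshold, and N. oculata reached it at 2 of these, both in tRNA-Gln(TTG). The remaining site, C48 of the chloroplast tRNA-Met_i(CAT), was at 0% in each vascular plant.

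The anticodon loop position C38, the TRDMT1 site, was far lower in N. oculata in both tRNAs where it could be compared. In tRNA-Asp(GTC) it was 42% in N. oculata against 94.7% in A. thaliana (the authors' mean), 95% in B. rapa, 95% in T. durum and 94% in G. biloba. The vascular plants lay within 1 percentage point of each other, and N. oculata was 52 points under the lowest of them. In tRNA-Gly(GCC) it was 13% in N. oculata, 92% in A. thaliana, 87% in B. rapa, 91% in T. durum and 86% in G. biloba, a gap of 73 points to the lowest. The low value there was not particular to C38, since C48, C49 and C50 of this tRNA were also at 13%. Only the aspartate site thus reached the 20% threshold. The green alga Caulerpa taxifolia (1 library) was also below the vascular plants at both, with 64% in tRNA-Asp(GTC) and 34% in tRNA-Gly(GCC). In the A. thaliana sequences both sites sit between an A at position 37 and a G at position 39. A cytosine stands at position 38 in 3 of the 8 nuclear consensus sequences, and the table lists no site there for the third, tRNA-Glu(CTC).

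At C48, in the variable loop, the 6 nuclear sites of N. oculata spread from 0% to 84% with a median of 31%, against a median of 77.5% over the vascular medians. None lay above the vascular range, 3 lay within it and 3 below. The serine isodecoder tRNA-Ser(GCT), which has a long variable arm, held the highest of these values: 84% in N. oculata, 89% in A. thaliana, 91% in B. rapa, 89% in T. durum and 92% in G. biloba. N. oculata was 5 points under the lowest plant there. In tRNA-Asp(GTC), C48 was 64% in N. oculata, 69% in A. thaliana, 51% in B. rapa, 82% in T. durum and 59% in G. biloba. This value equalled the vascular median, and it was the one site of 5 in this tRNA where the alga was not below every vascular plant. In tRNA-Glu(CTC), C48 was 0% in N. oculata, A. thaliana and B. rapa, 22% in G. biloba and 40% in T. durum, so that the alga shared the lower end of the range.

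In N. oculata both glutamine tRNAs had lower values at C48 than at C49, which was at 100% in each. In tRNA-Gln(CTG), C48 was 29% in N. oculata against 86% in A. thaliana, 100% in B. rapa, 96% in T. durum and 71% in G. biloba. The gap to the lowest plant was 42 points. C49 of the same tRNA was 100% in N. oculata, 98% in A. thaliana, 88% in B. rapa, 95% in T. durum and 71% in G. biloba, so that N. oculata passed the highest plant by 2 points. In tRNA-Gln(TTG), which had no value in G. biloba, C48 was 33% in N. oculata, 92% in A. thaliana, 8% in B. rapa and 66% in T. durum. The plants alone spanned 84 points there and the alga lay between them. C49 was 100% in N. oculata against 0% in A. thaliana, 54% in B. rapa and 69% in T. durum, 31 points over the highest plant. Within 1 tRNA, C49 exceeded C48 in N. oculata by 71 points in tRNA-Gln(CTG) and by 67 points in tRNA-Gln(TTG). In the vascular plants that difference ran from -12 to 12 in the first and from -92 to 46 in the second. C. taxifolia had no value in the first. In the second it had 6% at C48 and 94% at C49, a step of 88 points.

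At C49, in the T stem, N. oculata lay on both sides of the plants. Its 7 nuclear sites had a median of 89% and fell 4 below, 0 within and 3 above the range. The differences from the vascular median ran from -78 to 46 percentage points, with a median of -3.83. The third site above, after the glutamine pair, was in tRNA-Thr(TGT): 85% in N. oculata, 30.5% in A. thaliana, 50% in B. rapa and 47% in T. durum, with no value in G. biloba. N. oculata was 35 points over the highest plant. Of the 4 sites below, tRNA-Gly(TCC) at 90% was 2 points under the lowest plant, tRNA-Glu(CTC) at 89% was 4 points under it, and tRNA-Asp(GTC) at 82% was 13 points under it. The fourth, in tRNA-Gly(GCC), was 13% in N. oculata, 93.7% in A. thaliana, 92% in B. rapa, 90% in T. durum and 83% in G. biloba.

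C50, the next base of the T stem, was below the range in all 4 tRNAs with a value. It was 82% in tRNA-Asp(GTC) against 92% to 96% in the plants, and 80% in tRNA-Gly(TCC) against 90% to 95%. In tRNA-Glu(CTC) it was 67% in N. oculata, 93% in A. thaliana, 91% in B. rapa, 93% in T. durum and 93% in G. biloba. In the alga, C50 of this tRNA was lower than C49 by 22 points, while in the vascular plants it was lower by 1 to 3 points. In tRNA-Gly(TCC) the step from C49 to C50 was -10 points in N. oculata and ran from -4 to 1 in the plants. The step was 0 in N. oculata in the other pair of tRNAs, against -3 to -1 in the plants in tRNA-Asp(GTC) and -11 to 0 in tRNA-Gly(GCC). The one site of the acceptor stem, C72 of tRNA-Asp(GTC), was 60% in N. oculata, 95.3% in A. thaliana, 95% in B. rapa, 97% in T. durum and 91% in G. biloba, 31 points under the lowest plant.

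**Figure D2:**
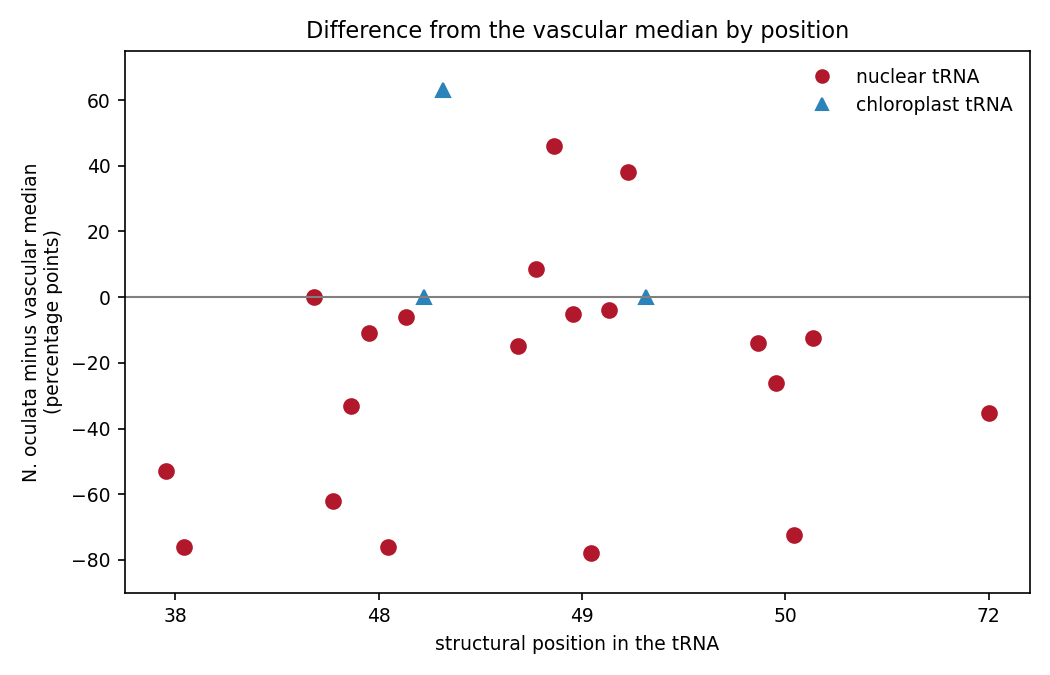
Difference between N. oculata and the vascular median, in percentage points, by structural position for nuclear (circles) and chloroplast (triangles) sites. Both sites at 38, all 4 at 50 and the site at 72 lie below 0, and the sites at 48 and 49 lie on both sides.

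The tRNAs for aspartate, glutamate (CTC) and both glycine isodecoders share the 11 bases from position 48 to 58 in A. thaliana (cccgggttcga), a run held by 6 of the 100 consensus sequences of the list (6%; searched in the strand of the tRNA). In the vascular plants their medians were alike, 91% to 96.8% at C49 and 85.5% to 95.8% at C50. In N. oculata they ran from 13% to 90% at C49 and from 13% to 82% at C50, with tRNA-Gly(GCC) the lowest at both. At C48 of tRNA-Gly(TCC), where the plants had 42% to 89%, the table gives a T in place of a cytosine for N. oculata, so that the run is not complete in the alga.

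tRNA-Gly(GCC) stood apart from every other tRNA of N. oculata. All 4 of its sites were listed at exactly 13%, at C38 as at C48, C49 and C50. C48 was 92% in A. thaliana, 88% in B. rapa, 90% in T. durum and 83% in G. biloba, and C50 was 90.7%, 81%, 90% and 73% in the same order. The difference from the vascular median thus ran only from -78 to -72.5 points over the 4 sites. C. taxifolia was also below the vascular range at all 4, with 34% at C38, 0% at C48, 46% at C49 and 45% at C50. N. oculata had 6 tRNAs with at least 2 values, and tRNA-Gly(GCC) was the one in which all values were equal. Of the 10 such tRNAs of A. thaliana, the 11 of B. rapa, the 10 of T. durum and the 6 of C. taxifolia none had all values equal. Of the 8 of G. biloba 1 did, tRNA-Gln(CTG) with 2 sites at 71%. Equal values at only some sites of tRNA-Gly(GCC) also occurred in the plants: C48, C49 and C50 were all 90% in T. durum, C38 and C48 were both 92% in A. thaliana, and C48 and C49 were both 83% in G. biloba. In tRNA-Asp(GTC), C49 and C50 were both 82% in N. oculata, and C38 and C72 were both 95% in B. rapa. Sites of 1 tRNA can be read on the same molecules, and with a minimum of 5 reads per position and no read numbers in the table, it was not tested whether the equal values rest on few reads.

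**Figure D3:**
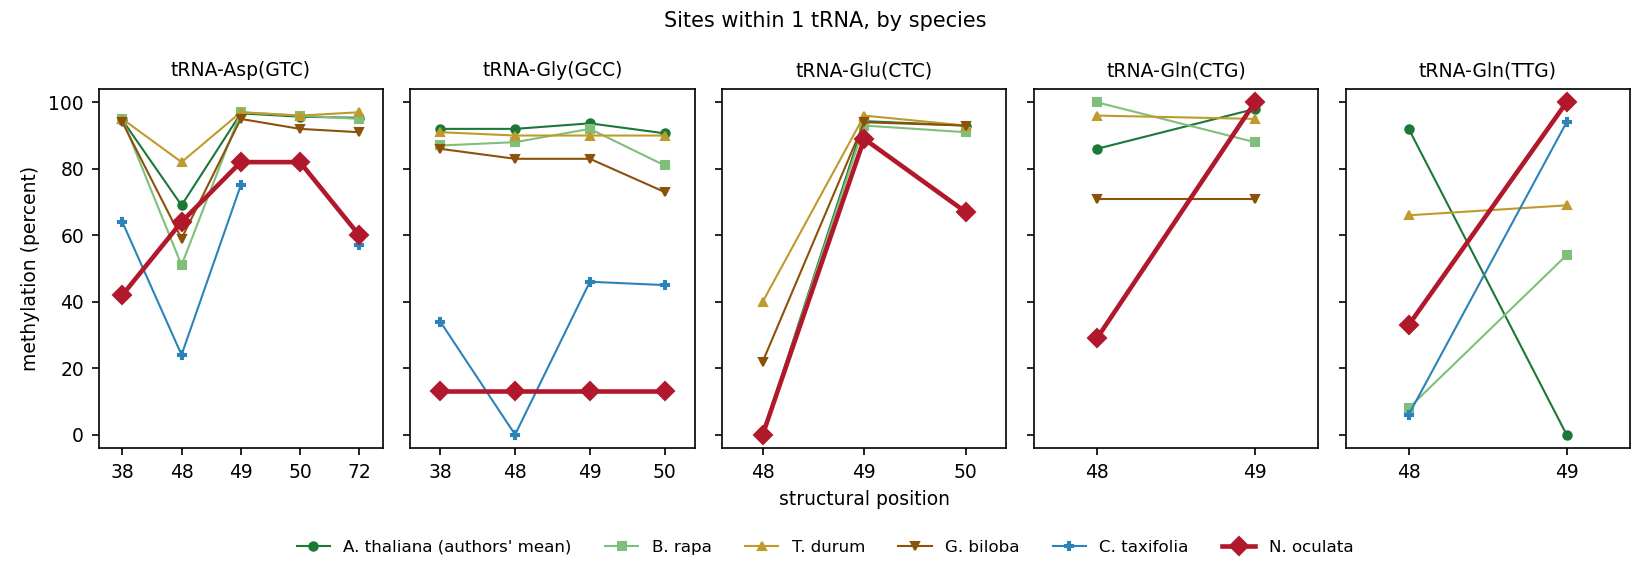
Methylation (percent) at each listed site within 5 nuclear tRNAs, with 1 line per species joining the sites of that tRNA. N. oculata (red) is flat at 13% in tRNA-Gly(GCC) and climbs from C48 to C49 in the glutamine and glutamate tRNAs.

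Counted per tRNA, 2 of the 8 nuclear tRNAs had no site below the vascular range, tRNA-Gln(TTG) and tRNA-Thr(TGT), and in both the plants themselves were split or only partly methylated. tRNA-Asp(GTC) was below at 4 of 5 sites, tRNA-Glu(CTC) at 2 of 3 and tRNA-Gly(TCC) at both of its 2 compared sites, in the last by at most 10 points. Reads of N. oculata were matched by the authors to the A. thaliana consensus for some tRNAs and to tRNAs of a relative for others. The 12 nuclear sites matched to A. thaliana, in tRNA-Asp(GTC), tRNA-Glu(CTC) and tRNA-Gly(GCC), fell 10 below, 2 within and 0 above the range, with a median difference of -30.6 points. The 8 matched to the relative fell 4 below, 1 within and 3 above, with a median difference of -4.92 points. The part of the reference in these differences was not tested.

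At each of the 3 compared chloroplast sites the lowest vascular value was 0%, so that N. oculata could not lie below the range. In the chloroplast, C49 of tRNA-Cys(GCA) and C48 of tRNA-Glu(TTC) were at 0% in N. oculata as in A. thaliana, B. rapa and G. biloba, while T. durum had 89% and 90%. C48 of tRNA-Met_i(CAT), the plastid initiator tRNA, was 63% in N. oculata and 0% in all 4 vascular plants. Sites not assigned to the nucleus alone numbered 7 in N. oculata, and 5 of them were at 20% or above. In A. thaliana, B. rapa and G. biloba, each with 4 such sites, none was, and in T. durum 3 of 4 were. These counts do not compare the species, because a site is listed where some species was methylated. The 4 sites with a number in N. oculata alone and C48 of tRNA-Met_i(CAT) are listed through N. oculata itself. The origin of a tRNA was assigned by the authors from reference sequences, and a copy of an organellar tRNA in another genome was not looked for.

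None of the 4 sites with a number in N. oculata alone was assigned to the nucleus alone. C32 in the anticodon loop of the chloroplast elongator tRNA-Met_e(CAT) was 100%, and C48 of the mitochondrial tRNA-Arg(TCT) was 38%, with both not determined in the other species. C39 of tRNA-Glu(TTC), nuclear or mitochondrial, was 38%, where the other 5 species carried a G. C38 of the tRNA-Asp(GTC) of nuclear, mitochondrial or chloroplast origin was 36%, where the others carried an A. This last tRNA has the anticodon of the nuclear aspartate tRNA, in which C38 was 42%. The A. thaliana consensus shows the A at 38 in the sequence above. It has a G at position 39 of tRNA-Glu(TTC) and a T at position 32 of tRNA-Met_e(CAT). The A. thaliana consensus thus lacks the cytosine read at each of these sites in the alga. Reads were matched to A. thaliana for this tRNA-Glu(TTC), to the relative for tRNA-Met_e(CAT) and to both for this tRNA-Asp(GTC). No sequence of N. oculata was used, and whether reads of another tRNA were placed there was not tested.

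Each vascular plant was then set against the range of the other 3, over the 20 compared sites with a value in all of them, as a measure of how often a plant falls outside. A. thaliana lay below the other 3 at 0 sites, T. durum at 0, B. rapa at 4 and G. biloba at 11. N. oculata lay below at 14 of these 20 sites whichever plant was left out of the range. The median difference from the others was -2 percentage points in G. biloba and from -14.5 to -12.8 in N. oculata, so that the alga fell below at 14 sites against 11 in the gymnosperm, and by more.

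Across sites, the alga followed the plants loosely. Over the 17 nuclear sites with a value in N. oculata and all vascular plants, Pearson's r with a single plant ran from 0.40 (B. rapa) to 0.49 (G. biloba) and the median absolute difference from 14.7 (A. thaliana) to 26 points (T. durum and G. biloba). Between pairs of vascular plants at the same sites, r ran from 0.88 to 0.98 and the median absolute difference from 1.67 to 5 points. Among these sites only C48 of tRNA-Glu(CTC) was low in the plants, at 0% to 40% against 51% or more elsewhere. Such a site weighs heavily on Pearson's r, which was not computed without it. By Spearman's rho the ranges overlapped, from 0.36 to 0.55 with N. oculata and from 0.54 to 0.80 between the plants. Against the vascular median over all 20 nuclear sites, r was 0.21 and Spearman's rho 0.27, and over the 16 sites without tRNA-Gly(GCC) they were 0.44 and 0.08. These are descriptions across sites: sites of 1 tRNA share reads, and all sites of N. oculata share 1 library.

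In the other alga of the table, C. taxifolia, 11 of the nuclear sites had a value, and C. taxifolia lay below the vascular range at 10 of them and N. oculata at 8, all 8 shared by both algae. N. oculata was the lower of the algae at 4 of the 11, namely C38 of tRNA-Asp(GTC) and C38, C49 and C50 of tRNA-Gly(GCC), and the higher at 7.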

How the data were processed

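Total RNA was separated on gels, and the tRNA size class was converted with bisulfite and sequenced. The authors aligned reads in CLC Genomics Workbench (version not given in the sources used here) to tRNA sequences converted in silico, taking the A. thaliana consensus list and tRNAs of the closest annotated relative. The authors deposited methylation as percent: reads that kept a cytosine, over the sum of cytosine and thymine reads, at positions with at least 5 reads. The A. thaliana column is their mean over 3 libraries. The 30.5% at C49 of tRNA-Thr(TGT) cannot be the mean of 3 whole percentages, so it may rest on fewer libraries. Cells marked not determined, or holding another base, were kept apart from numbers. The reference sequences were deposited by the authors with TAIR10 coordinates. The abundance table was not used.

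Sites were compared in Python 3.11.15 with NumPy 2.4.6, SciPy 1.17.1 and Matplotlib 3.10.9 (figures). A site lay outside the vascular range when it passed the lowest or highest plant by any amount. Positions 48 to 72 were counted from the 3′ end, with the last base as 73, and 32 to 39 from the anticodon, with its first base as 34. Every site with a number in N. oculata is named. The comparison functions were tested on simulated data. The members and lists were chosen with earlier results of these data known. Read depth per site is unknown beyond the minimum, so no interval was computed. Alternatives were the number of plants required, the plants and tRNAs left out, the gap counted as outside, the reference value and the threshold.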

Additional observations from a re-analysis of the deposited data

Results flagged for a closer look

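Over the 23 compared sites, the highest and lowest of N. oculata and the vascular plants were checked for their distance from the rest. Dixon's ratio at the 95% level served as a description, since species are not replicates. In replicates, chance would pass about 1 site in 20, but that share is no yardstick for these sites. Sites of 1 tRNA share reads, and the chloroplast sites flagged here are listed because a single species was methylated there. At 12 sites a species stood apart, N. oculata at 10 of them. The alga was low at C38 (42%, next value 94%), C49 (82%, next 95%), C50 (82%, next 92%) and C72 (60%, next 91%) of tRNA-Asp(GTC). It was low at C50 of tRNA-Glu(CTC) (67%, next 91%) and at all 4 sites of tRNA-Gly(GCC) (13%, next 86% at C38, 83% at C48 and C49, and 73% at C50). It was high at C48 of the chloroplast tRNA-Met_i(CAT) (63%, all others 0%). At the other 2 sites T. durum stood apart, with 89% at C49 of tRNA-Cys(GCA) and 90% at C48 of tRNA-Glu(TTC), both of the chloroplast. The other vascular plants and N. oculata were at 0% there.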

How the results depend on the processing

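With 1 value per tRNA (11 tRNAs), N. oculata was below the range in 6, within it in 3 and above it in 2, with a median difference of -6 points. With a value required in all 4 plants, 2 sites were above; with nuclear sites only, 3 were within. When a gap of at least 5 or 10 points was required to call a site outside, 8 and 9 sites were within. Leaving out tRNA-Gly(GCC) moved the median difference from -12.5 to -6 points, and the mean of the differences was -18.4. Leaving out each tRNA in turn gave 10 to 14 sites below, 4 to 5 within, 3 to 4 above and median differences of -13.8 to -6; the other counts stayed within 1.5 times of those reported, and the median difference within 5 points. The median difference was negative under all of its 22 alternatives. These are not independent checks, because they reuse largely the same sites. The run without tRNA-Gly(GCC) enters 2 times, and requiring at least 3 plants left the median difference at -12.5. At thresholds of 10%, 30% and 40% in place of 20%, 24, 19 and 15 sites of N. oculata counted as methylated. Of the sites methylated in every plant at the same threshold, 17, 12 and 11 also reached it in N. oculata. The sites of tRNA-Gly(GCC), all at 13%, pass at 10% and at no higher threshold used. No paired analysis was possible because N. oculata is 1 library. Leaving out single A. thaliana libraries could not be done with the averaged values.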
